A study of Mus musculus with 6 samples.

Results

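Hyaluronan synthesis, turnover and binding were followed through 8 genes, chosen by gene symbol from a list of hyaluronan synthases (Has1, Has2 and Has3), hyaluronidases (Hyal1 and Hyal2), a receptor (Cd44) and binding proteins (Vcan and Tnfaip6). All 8 symbols were found among the 18051 genes of the expression table. RNA-seq had been performed on 6 mouse libraries, 3 in which S100a8 was knocked out with lentiviral Cas9 (knockout) and 3 with a control vector (control), to see how the transcriptome differs when this calcium-binding protein is lost. The labels name the cells hematopoietic stem cells, give no compound, and do not say whether the replicates were separate cultures, so that p-values rest on library-to-library spread that could be wholly technical. The text of the study describes S100a8 disruption by lentiviral CRISPR in mouse embryonic fibroblasts to which glycyrrhizic acid, a licorice compound, was added; whether any library here received it is not known from the labels, nor is it given whether the knockout cells were a clone or a pool.

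Hyaluronan is a long, unsulfated sugar polymer that synthases in the plasma membrane extrude directly into the pericellular space, using UDP-glucuronic acid and UDP-N-acetylglucosamine from the cytosol. It is cut at the cell surface and in lysosomes by hyaluronidases, and it is held in the matrix by proteins with a link module, among them the receptor CD44, the proteoglycan versican and the secreted protein TSG-6. In fibroblasts and other mesenchymal cells this coat is known for its part in matrix hydration, migration and inflammation.

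The target gene S100a8 was listed at 0 in all 3 knockout libraries and at 3.67, 1.61 and 3.95 FPKM (fragments per kilobase of transcript, normalised to library size) in the control libraries. FPKM summed to 467255 to 538504 per library, highest in knockout replicate 2, which also stood apart across genes (r = 0.9938 and 0.9953 with the other knockout libraries, whose own r was 0.9987). Of the markers of the labelled cell type, Kit and Ptprc were listed at 0 in all 6 libraries. Myb and Flt3 were at 0.13 FPKM or less in every library. The 8 markers used summed to 137 to 165.8 FPKM in knockout and 435.5 to 453.8 FPKM in control libraries. Ly6a was the largest part of this sum, at 86.2 to 115.21 FPKM in knockout and 349.71 to 367.94 FPKM in control libraries. Cd34 came next, at 31.83 to 33.95 FPKM in knockout and 55.28 to 58.03 FPKM in control libraries. Of the 4 tested markers 3 were lower in knockout. The summed level of 10 fibroblast markers was 3716 to 3917 FPKM in knockout and 2399 to 2517 FPKM in control libraries, with 7 of 9 tested markers higher and 1 lower in knockout. The lower one was Dcn (mean 4.73 FPKM in knockout and 67.2 in control libraries). Thy1 was at 0 in all control libraries, and Lum at 0.07 FPKM or less in every library. The summed level of 5 smooth muscle and contractile markers was 1712 to 1956 FPKM in knockout and 740.7 to 793.6 FPKM in control libraries, with 4 of 4 tested markers higher in knockout. By the same test, described below, 23.6% of all tested genes were higher and 26.7% lower in knockout. Leukocyte markers summed to 3.68 to 4.15 FPKM in knockout and 4.44 to 5.52 FPKM in control libraries, and endothelial markers to 0.10 to 0.33 FPKM in knockout and 0.38 to 0.42 FPKM in control libraries. The part of these differences in the results below was not tested.

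Hyal1, Has2 and Tnfaip6 fell in knockout libraries, whereas Vcan, Hyal2 and Cd44 rose. Has1 was lower but missed the threshold, and Has3 was too low to be tested with the other genes. The hyaluronidases thus moved in opposite directions, as did the binding proteins. With limma on log2(FPKM + 1) and Benjamini-Hochberg adjustment over the 11112 genes whose mean reached 1 FPKM, 6 of the 7 tested members passed an adjusted p of 0.05, 3 upward and 3 downward, and without knockout replicate 2 the count was again 6 of 7. Of all tested genes 50.2% passed, 23.6% upward and 26.7% downward. The 3 knockout values and the 3 control values did not overlap in 7 of 7 tested members and in 60.7% of all tested genes. The median difference, knockout minus control, was -0.27 over the tested members and -0.015 over all tested genes. Has3 did not pass the filter on low values, and Hyal1 and Tnfaip6, whose knockout means were under 1 FPKM, passed it through their control libraries, so these counts are not counts over the whole list. In bulk RNA, fewer cells of a type and less RNA per cell cannot be told apart.

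**Figure D1:**
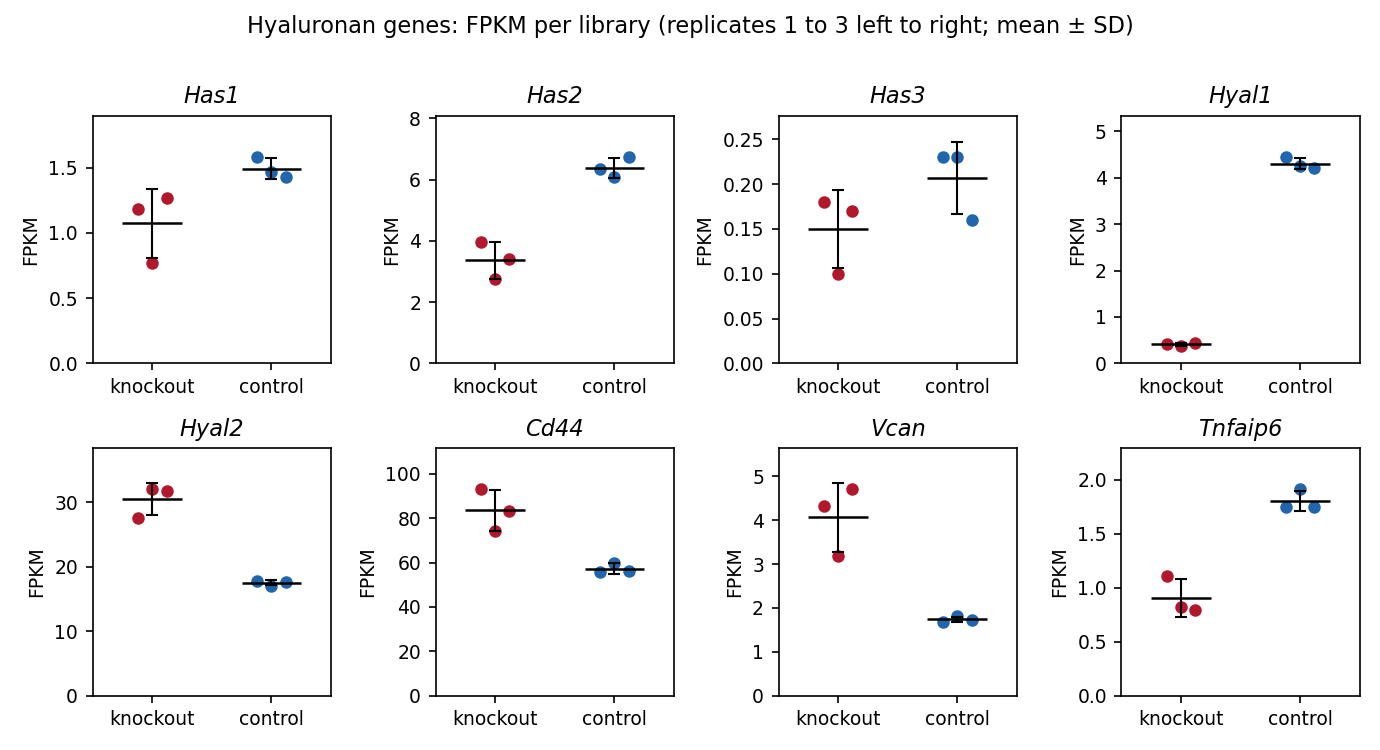
FPKM of the 8 hyaluronan genes in each library, knockout on the left (red) and control on the right (blue), with replicates 1 to 3 from left to right in each group, a line at the mean and a bar of ± 1 SD (n = 3 each). Hyal1 lay at 0.38 to 0.43 FPKM in knockout and 4.21 to 4.44 FPKM in control libraries, and Has3 alone has overlapping groups.

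Per length, Cd44 was the highest of the 8 genes in both groups and Has3 the lowest. In knockout libraries the mean FPKM fell in the order Cd44, Hyal2, Vcan, Has2, Has1, Tnfaip6, Hyal1 and Has3. The ranges of Vcan (3.18 to 4.70) and Has2 (2.74 to 3.95) overlapped there, as did those of Has1 (0.77 to 1.27) and Tnfaip6 (0.79 to 1.11). In control libraries the order was Cd44, Hyal2, Has2, Hyal1, Tnfaip6, Vcan, Has1 and Has3, with overlapping ranges only for the neighbours Tnfaip6 (1.75 to 1.91) and Vcan (1.69 to 1.81). By rank of the means, Vcan thus came next after Hyal2 in knockout libraries but after Tnfaip6 in control libraries. Its range overlapped that of Has2 in knockout and that of Tnfaip6 in control libraries. Hyal1 came next before Has3 in knockout libraries but next after Has2 in control libraries.

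The upstream sequences of 3 of the changed members are shown because their genes moved furthest down (Hyal1), furthest up (Vcan) or carry a match to the AP-1 motif (Tnfaip6). The sequences are from RefSeq (GRCm38.p6, the build of mm10), 5′ to 3′ on the strand of the gene, cut where any annotated exon begins; capitals mark the match to TGANTCA. They lie at chr9:107576700-107576926 (plus strand) for Hyal1, chr13:89742513-89742762 (minus strand) for Vcan and chr2:52037863-52038008 (plus strand) for Tnfaip6.
Hyal1: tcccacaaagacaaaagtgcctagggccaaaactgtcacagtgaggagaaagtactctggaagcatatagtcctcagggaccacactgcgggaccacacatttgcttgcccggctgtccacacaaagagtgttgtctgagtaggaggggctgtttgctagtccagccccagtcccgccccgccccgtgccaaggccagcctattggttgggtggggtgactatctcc
Vcan: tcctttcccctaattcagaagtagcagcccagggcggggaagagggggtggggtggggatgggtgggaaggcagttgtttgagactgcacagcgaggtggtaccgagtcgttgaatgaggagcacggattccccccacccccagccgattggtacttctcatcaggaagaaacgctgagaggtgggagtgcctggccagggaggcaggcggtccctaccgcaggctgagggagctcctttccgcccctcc
Tnfaip6: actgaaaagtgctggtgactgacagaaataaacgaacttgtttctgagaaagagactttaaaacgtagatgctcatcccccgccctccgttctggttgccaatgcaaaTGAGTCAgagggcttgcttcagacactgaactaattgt
A promoter of 250 bases before to 50 bases after the start was matched for 6 of the 8 members (Has1, Hyal1, Hyal2, Cd44, Vcan and Tnfaip6). Letters of 5 motifs were searched on both strands. The Tnfaip6 promoter held TGANTCA (AP-1, position -142 relative to the RefSeq start), AANNGAAA (IRF, position -94) and GGAATG (TEAD, position -8), and the Hyal2 promoter held AANNGAAA and GGAATG. These letters occur in 7.8%, 23.9% and 14.7% of all 32851 promoters of the same length. TATAAA (13.6% of all promoters) and GGGANTTTC (NF-kB, 1.1%) were in none of the 6, and the Has1, Hyal1, Cd44 and Vcan promoters held none of the 5. The Hyal2 window starts at 107568913, inside the annotated span of Hyal2, which begins at 107567945, so its matches are not upstream of the gene. In the Tnfaip6 window only the AP-1 match lies before the annotated start of the gene at 52038009. The IRF and TEAD matches lie past it. The matches describe these windows only.

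Among the synthases, which differ in the rate and length of the chains they make, Has2 was the most abundant per length and the one that fell. Has2 (chromosome 15, 56665627 to 56694539, minus strand) was measured at 3.95, 2.74 and 3.40 FPKM in knockout libraries and 6.35, 6.09 and 6.73 FPKM in control libraries. Every knockout value lay below every control value, with knockout replicate 2 the lowest. The difference was -0.77 ± 0.11 on the log2(FPKM + 1) scale (SE; adjusted p = 0.000669), and the control mean was 1.90 times the knockout mean. Without knockout replicate 2 it was -0.66. The span of a noncoding gene on the opposite strand, Has2os, overlaps 4596 bases of the Has2 span. Since the use of strand in the counting was not given, reads from any exons the pair shares cannot be told apart.

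Has1 (chromosome 17, 17843323 to 17855205, minus strand) was at 1.18, 0.77 and 1.27 FPKM in knockout libraries and 1.58, 1.47 and 1.43 FPKM in control libraries. The groups did not overlap, but the knockout libraries were spread over a wide range. Its difference was -0.27 (95% interval -0.52 to -0.03), with an adjusted p of 0.0612, and it passed in 1 of 15 alternative settings, without knockout replicate 3 (adjusted p = 0.0475; largest over the alternatives 0.181). Has3 (chromosome 8, 106870242 to 106884566, plus strand) was at 0.18, 0.10 and 0.17 FPKM in knockout libraries and 0.23, 0.23 and 0.16 FPKM in control libraries. These groups overlapped, and an exact two-sided permutation test of the mean difference of -0.0567 FPKM gave p = 0.3, where 3 against 3 libraries cannot go below 0.1.

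Summed over the 3 genes, synthase FPKM was 5.31, 3.61 and 4.84 in knockout libraries and 8.16, 7.79 and 8.32 in control libraries. Has2 made up 70.2% to 75.9% of this sum in knockout and 77.8% to 80.9% in control libraries, Has1 21.3% to 26.2% in knockout and 17.2% to 19.4% in control libraries. Has2 thus remained the main synthase transcript in both groups, with a smaller share in knockout libraries.

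HYAL1 is a lysosomal enzyme that cuts hyaluronan to small fragments, and HYAL2, a GPI-anchored enzyme, acts at the cell surface on long chains. Hyal1 (chromosome 9, 107576927 to 107581710, plus strand) was measured at 0.42, 0.38 and 0.43 FPKM in knockout libraries and 4.44, 4.26 and 4.21 FPKM in control libraries. The groups were far apart, and each was narrow. The control mean was 10.5 times the knockout mean, and the difference was -1.91 ± 0.07 on the log2(FPKM + 1) scale (SE; adjusted p = 2.71e-07), larger in size than in all but 2.71% of tested genes. At this low level the value depends on the pseudocount, and it was -3.11 with a pseudocount of 0.1. Hyal2 (chromosome 9, 107567945 to 107572779, plus strand) was at 27.6, 31.98 and 31.77 FPKM in knockout libraries and 17.78, 17.05 and 17.65 FPKM in control libraries. Here the knockout libraries were all above the control libraries, by 0.76 ± 0.07 (SE; adjusted p = 7.10e-05), or 1.74 times by the means. Per length, Hyal2 was 65.7, 84.2 and 73.9 times as high as Hyal1 in the knockout libraries and 4.0, 4.0 and 4.19 times as high in the control libraries.

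Hyal1 and Hyal2 lie side by side on chromosome 9, with their starts 9.0 kb apart. Counting Hyal1 and Hyal2, 18 measured genes had some part within 100 kb of Hyal1 on either side, and 12 were tested. Of these 7 rose in knockout, 4 did not pass and only Hyal1 fell, where 23.6% of all tested genes rose and 26.7% fell. Hyal1 passed the filter on low values through its control libraries, so a call for it could only be a fall. The span of Hyal1 shares 2824 bases on the same strand with that of Naa80, an N-terminal acetyltransferase of actin, and 893 bases with that of Hyal3. Overlap of exons was not measured, and where exons are shared, reads could be split between these genes in the counting. The span of an antisense gene, Gm16343, also overlaps all 4784 bases of the Hyal1 span on the opposite strand. Without the strand setting, reads from any exons it shares with Hyal1 cannot be told apart. Naa80 was at 9.79, 13.26 and 11.07 FPKM in knockout libraries and 11.75, 12.77 and 11.42 FPKM in control libraries, a difference of -0.08 (95% interval -0.32 to 0.17; adjusted p = 0.578) that turned to 0.0168 without knockout replicate 1 and passed at -0.18 without knockout replicate 2 (adjusted p = 0.0308). Hyal3 was at 0.65, 0.69 and 0.49 FPKM in knockout libraries and 0.49, 0.50 and 0.71 FPKM in control libraries, under the filter. With all 6 libraries, the knockout and control ranges of both Naa80 and Hyal3 overlapped. Among the other neighbours, Sema3b, a secreted semaphorin, rose by 1.18, Cyb561d2 by 0.62, Sema3f by 0.53, Nprl2 by 0.39, Ifrd2 by 0.36 and Rassf1 by 0.35 on the log2(FPKM + 1) scale. Nprl2 lost its call without control replicate 1 (adjusted p = 0.0702) or control replicate 3 (adjusted p = 0.0656). Tusc2, the neighbour next to Hyal2, differed by 0.14 (95% interval -0.06 to 0.33; adjusted p = 0.210).

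**Figure D2:**
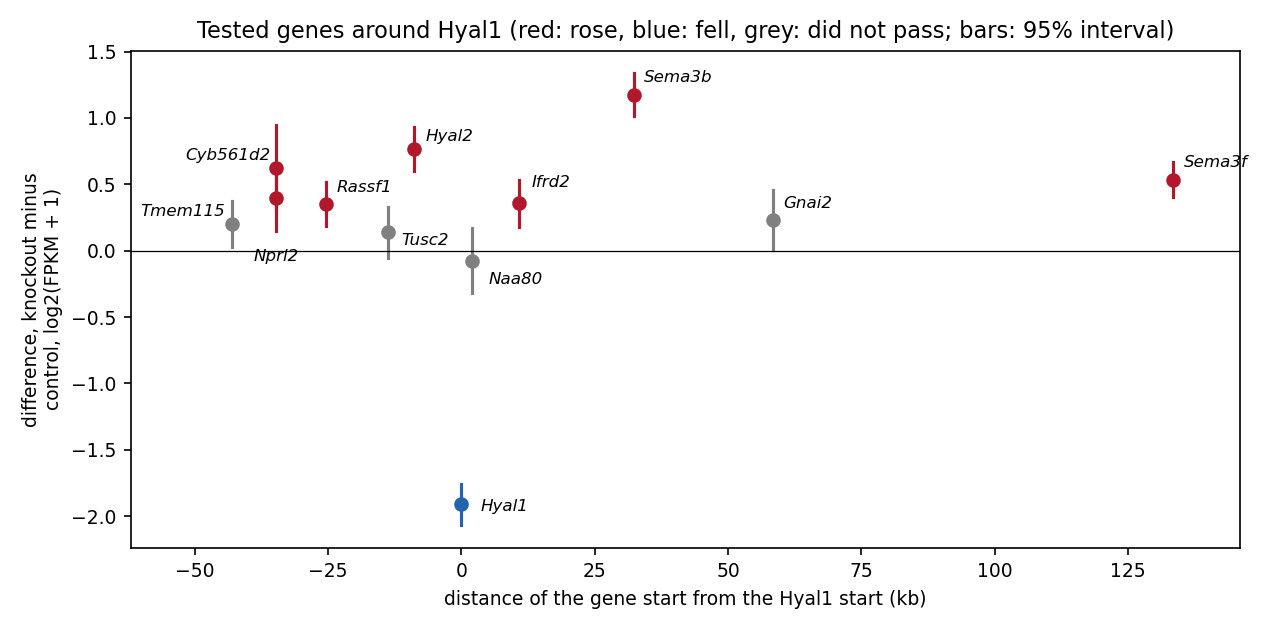
Difference, knockout minus control, on the log2(FPKM + 1) scale (vertical axis, point, with its 95% interval as a bar) of the 12 tested genes around Hyal1, against the distance of each gene's start from the Hyal1 start in kb (horizontal axis). Hyal1 at -1.91 is the only gene of the 12 that fell, and Hyal2, 9.0 kb away, is at 0.76. Hyal1 passed the filter on low values through its control libraries.

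Cd44 encodes the main cell surface receptor for hyaluronan. Cd44 (chromosome 2, 102811141 to 102901665, minus strand) was at 92.96, 74.28 and 83.43 FPKM in knockout libraries and 55.61, 59.93 and 56.39 FPKM in control libraries. The knockout libraries were all higher, and replicate 2 lay nearest to the controls. The means were 83.6 ± 9.34 FPKM in knockout and 57.3 ± 2.3 FPKM in control libraries (SD, n = 3 each), and the difference was 0.53 ± 0.09 on the log2(FPKM + 1) scale (SE; adjusted p = 0.00141). The annotation holds 9 transcripts of Cd44, and the values per gene do not separate its variant isoforms.

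Vcan encodes versican, a large chondroitin sulfate proteoglycan that binds hyaluronan through its N-terminal domain. Vcan (chromosome 13, 89655312 to 89742509, minus strand) was at 4.32, 3.18 and 4.70 FPKM in knockout libraries and 1.69, 1.81 and 1.72 FPKM in control libraries. All knockout values were above all control values, and the means stood at a ratio of 2.34. The difference was 0.87 ± 0.12 (SE; adjusted p = 0.000528), the largest rise of the 8 genes, and 1.01 without knockout replicate 2. The span of an antisense gene, Gm4117, overlaps 3050 bases of the Vcan span, and reads from any shared exons cannot be told apart either. The annotation holds 9 transcripts of Vcan, which the values per gene do not separate.

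Tnfaip6 encodes TSG-6, a secreted link module protein that transfers heavy chains of inter-alpha-inhibitor onto hyaluronan. Tnfaip6 (chromosome 2, 52038009 to 52056686, plus strand) was at 1.11, 0.82 and 0.79 FPKM in knockout libraries and 1.75, 1.91 and 1.75 FPKM in control libraries. The knockout values all lay under the control values. The means were 0.907 ± 0.177 FPKM in knockout and 1.80 ± 0.0924 FPKM in control libraries (SD, n = 3 each), a difference of -0.56 ± 0.09 on the log2(FPKM + 1) scale (SE; adjusted p = 0.00117). It was -0.93 with a pseudocount of 0.1. The tested genes of chromosome 2, which holds Cd44 and Tnfaip6, had a median difference of -0.20, and relative to it Cd44 was at 0.73 and Tnfaip6 at -0.36 (adjusted p = 0.0118). For the chromosomes of the other tested members the median lay between -0.11 (chromosome 15) and 0.05 (chromosomes 9 and 13).

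**Figure D3:**
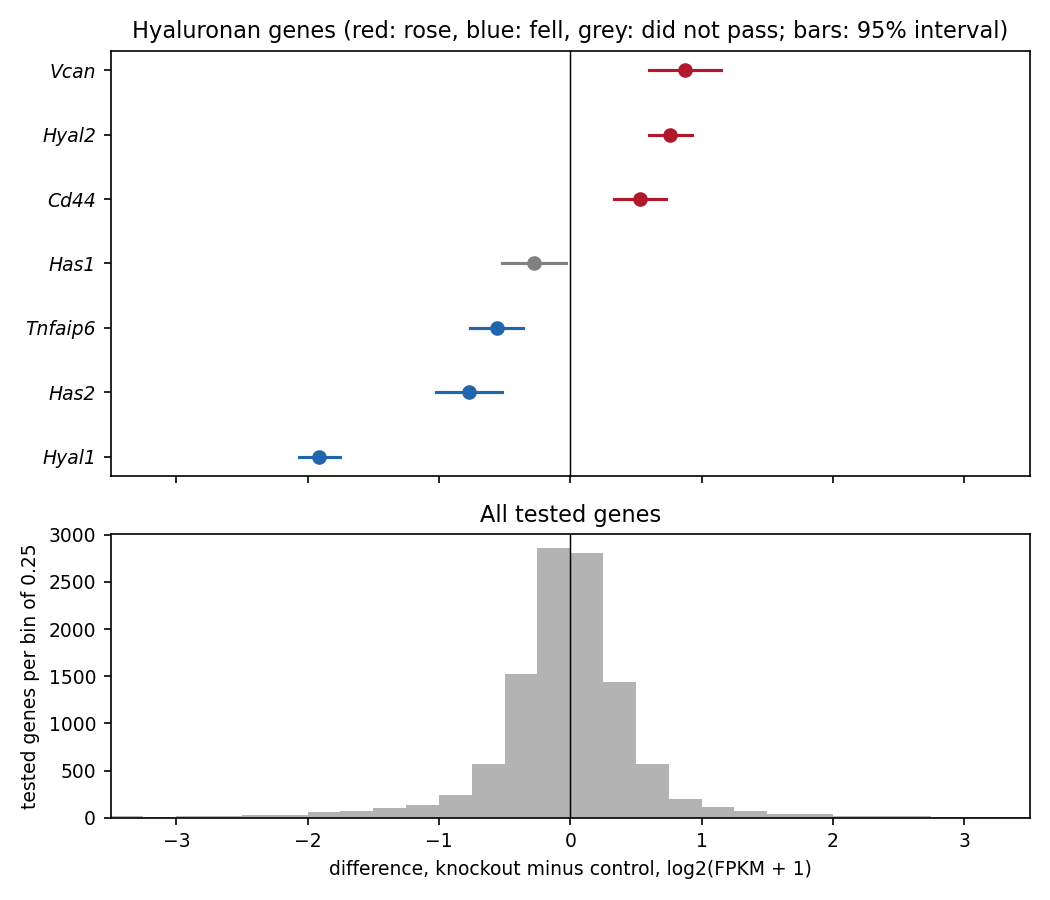
Upper panel, difference between knockout and control (knockout minus control, log2(FPKM + 1) scale, horizontal axis) of the 7 tested hyaluronan genes with 95% intervals; lower panel, number of all 11112 tested genes per bin of 0.25 on the same axis, whose ends leave out the most extreme genes. Vcan, Hyal2 and Cd44 lie at 0.87, 0.76 and 0.53, and Hyal1 at -1.91 lies in the far left tail of all genes.

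The genes that make, cut, bind and modify the same polymer and its partners were then described by lists. Over all tested genes 50.2% passed, 23.6% upward and 26.7% downward. The counts of each list, here and in the paragraphs below, are to be read against these shares. Of 12 tested genes for UDP-sugar precursors, 1 rose, 4 fell and 7 did not pass (median -0.12). Ugdh, which oxidizes UDP-glucose to the UDP-glucuronic acid of hyaluronan, was at 54.24, 46.03 and 51.70 FPKM in knockout libraries and 80.34, 83.74 and 78.67 FPKM in control libraries, a difference of -0.67 (adjusted p = 0.000159). Has2 and Ugdh were thus both lower in every knockout library than in any control library. In 60.7% of all tested genes the groups did not overlap, in either direction. The other falls were in glycolytic genes that feed the pathway, the isomerase Gpi1 (-1.02) and the hexokinases Hk2 (-0.95) and Hk1 (-0.88). Gnpnat1, an acetyltransferase of the UDP-N-acetylglucosamine branch, rose by 0.34, but lay at -0.08 (adjusted p = 0.369) when the genes of each chromosome were centred on their median.

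Outside the Hyal genes, 3 of 5 tested genes for depolymerization and lysosomal breakdown rose and 2 did not pass (median 0.34). Of the 2 that did not pass, Idua is a lysosomal gene whose enzyme does not act on hyaluronan. Cemip, a hyaluronan-binding protein needed for depolymerization in human skin fibroblasts, was at 37.96, 24.86 and 38.07 FPKM in knockout libraries and 22.43, 19.52 and 21.01 FPKM in control libraries, a rise of 0.63 (adjusted p = 0.0109) with knockout replicate 2 again nearest to the controls. Its relative Cemip2 differed by -0.09 (95% interval -0.37 to 0.18; adjusted p = 0.543), and by 0.04 without knockout replicate 2 and 0.13 with centring by chromosome. The lysosomal exoglycosidase genes Hexa and Gusb, whose products take hyaluronan fragments apart, rose by 0.71 and 0.34. Hexa was the more abundant of them, at 138.1, 164.3 and 147.6 FPKM in knockout libraries and 89.1, 93.5 and 90.5 FPKM in control libraries. In the degradation genes, then, the lysosomal hyaluronidase Hyal1 was lower in knockout while Hyal2, Cemip and these exoglycosidases were higher.

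Of 4 other tested receptors none rose, 3 fell and 1 did not pass (median -0.69). The Toll-like receptors Tlr2 and Tlr4, reported to respond to hyaluronan fragments, fell by 1.09 and 1.05, and layilin (Layn) fell by 0.34. Tlr2 was at 25.47, 20.31 and 19.45 FPKM in knockout libraries and 47.21, 47.47 and 46.66 FPKM in control libraries. Hmmr, the motility receptor RHAMM, was at 22.76 to 26.92 FPKM in knockout and 25.23 to 26.36 FPKM in control libraries, with a difference of -0.02 (95% interval -0.19 to 0.16) whose sign turned with quantile normalization (0.03), with centring by chromosome (7e-04) and without knockout replicate 2 (0.06). Cd44 thus rose where the other tested receptors fell or did not pass, and its ratio to Hmmr was 3.45, 3.26 and 3.10 in knockout libraries and 2.11, 2.32 and 2.24 in control libraries. The endothelial receptors Lyve1, Stab1 and Stab2 were at 0.16 FPKM or less in every library.

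Adamts1, a metalloprotease that cleaves versican, was at 35.03, 28.74 and 39.17 FPKM in knockout libraries and 4.46, 4.18 and 4.49 FPKM in control libraries. The lowest knockout library was still far above the highest control library, and the rise was 2.70 ± 0.11 (SE; adjusted p = 5.04e-07). Of 4 tested ADAMTS proteases of this list 3 rose and 1 fell, with a median of 0.55. Adamts4 rose by 0.57 and Adamts5 by 0.54, whereas Adamts9 fell by 0.86 (-1.30 with a pseudocount of 0.1). Per length, Adamts1 was 8.11, 9.04 and 8.33 times as high as Vcan in knockout libraries and 2.64, 2.31 and 2.61 times as high in control libraries. Adamts1 and Vcan thus both rose, Adamts1 by more, with the isoforms of Vcan not separated.

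Itih2, a heavy chain of inter-alpha-inhibitor and so a donor in the TSG-6 reaction, was at 0.70, 0.51 and 0.63 FPKM in knockout libraries and 9.56, 9.10 and 8.99 FPKM in control libraries. The difference was -2.66 (adjusted p = 8.17e-08), and -3.72 with a pseudocount of 0.1. Like Tnfaip6, Itih2 had a knockout mean under 1 FPKM and passed the filter on low values through its control libraries. For both genes a call could thus only be a fall. The pentraxin Ptx3, which TSG-6 binds in the hyaluronan matrix, differed by -0.17 (95% interval -0.33 to -0.02; adjusted p = 0.0600), with no overlap between the groups, and passed without knockout replicate 1 (-0.23, adjusted p = 0.0194) or knockout replicate 2 (-0.13, adjusted p = 0.0409). The heavy chains Itih1, Itih3, Itih4 and Itih5 were at 0.08 FPKM or less in every library. Among the other hyalectans and link proteins only Hapln4 was tested, and it fell by 0.49 (2.21 to 2.59 FPKM in knockout and 3.74 to 3.77 FPKM in control libraries). Acan, Ncan, Bcan, Hapln1 and Hapln2 were at 0.04 FPKM or less in every library and Hapln3 at 0.24 FPKM or less, so that Vcan was the only hyalectan above the filter.

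**Figure D4:**
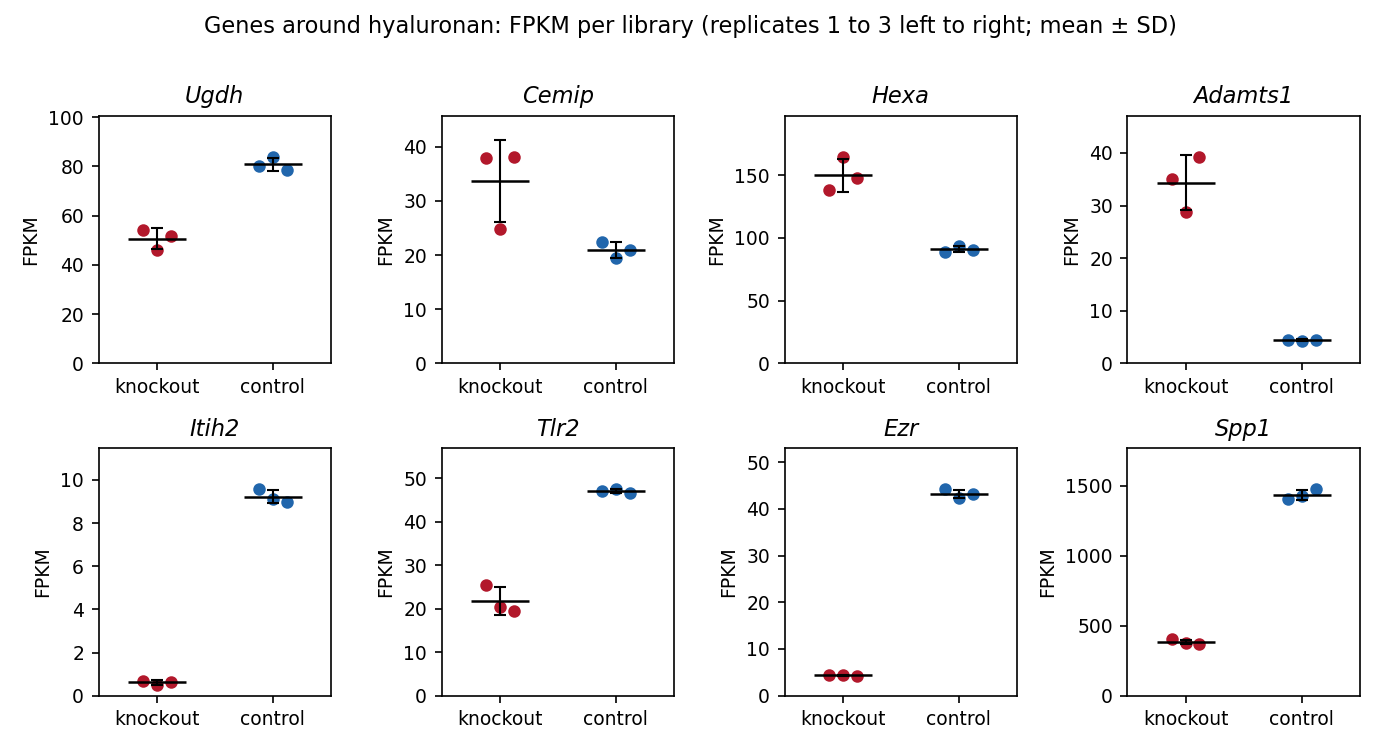
FPKM of 8 genes that supply, degrade or bind hyaluronan or act on its partners, in each library, knockout on the left (red) and control on the right (blue), replicates 1 to 3 from left to right, with the mean and ± 1 SD (n = 3 each). Cemip, Hexa and Adamts1 are higher in all 3 knockout libraries, and Ugdh, Itih2, Tlr2, Ezr and Spp1 are lower.

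Versican carries chondroitin sulfate, and of 12 tested genes for these chains 4 rose, 1 fell and 7 did not pass (median 0.08). Chst15, the sulfotransferase that adds a second sulfate to form chondroitin sulfate E, rose by 1.12. B4galt7 of the linker region rose by 0.63, and the chain polymerizing factors Chpf and Chpf2 rose by 0.58 and 0.38. The synthase Chsy1 fell by 0.26, and differed by -0.01 (adjusted p = 0.892) with centring by chromosome.

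Of 10 tested genes for CD44 shedding, its cytoskeletal linkage and its other ligands, 1 rose, 6 fell and 3 did not pass (median -0.41). No splicing gene was tested, as Esrp2 was at 0.06 FPKM or less in every library. Mmp14, a membrane metalloprotease that sheds CD44, rose by 0.91, and by 0.50 with centring by chromosome. The sheddase Adam10 differed by 0.04 (95% interval -0.15 to 0.23; adjusted p = 0.712); it passed at 0.13 without knockout replicate 2 (adjusted p = 0.0273), and its sign turned without knockout replicate 1 (-0.025) and with centring by chromosome (-0.0118). Adam17, another sheddase, differed by -0.22 (95% interval -0.44 to 0.0017; adjusted p = 0.0905), and passed without knockout replicate 1 (-0.29, adjusted p = 0.0345) and with centring by chromosome (-0.42, adjusted p = 0.00915). Ezr, encoding ezrin, which ties CD44 to actin, was at 4.50, 4.32 and 4.31 FPKM in knockout libraries and 44.15, 42.43 and 43.08 FPKM in control libraries, a difference of -3.04 (adjusted p = 1.22e-08). The other linkers differed by less. Msn (moesin) fell by 0.40 and Nf2 (merlin) by 0.42, and ankyrin Ank3 fell by 0.43. Msn lost its call when scaled to a common sum (adjusted p = 0.0506), with quantile normalization (0.0528), with centring by chromosome (-0.04 on the log2 scale, adjusted p = 0.804) and without control replicate 2 (0.0601). Rdx (radixin) had overlapping groups and differed by 0.13 (95% interval -0.12 to 0.37; adjusted p = 0.355), but passed at 0.24 without knockout replicate 2 (adjusted p = 0.00336). The secreted CD44 ligands osteopontin (Spp1) and galectin-9 (Lgals9) fell by 1.90 and 2.97. Cd44 and Mmp14 were thus higher in knockout libraries, while ezrin and both other ligands were lower.

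**Figure D5:**
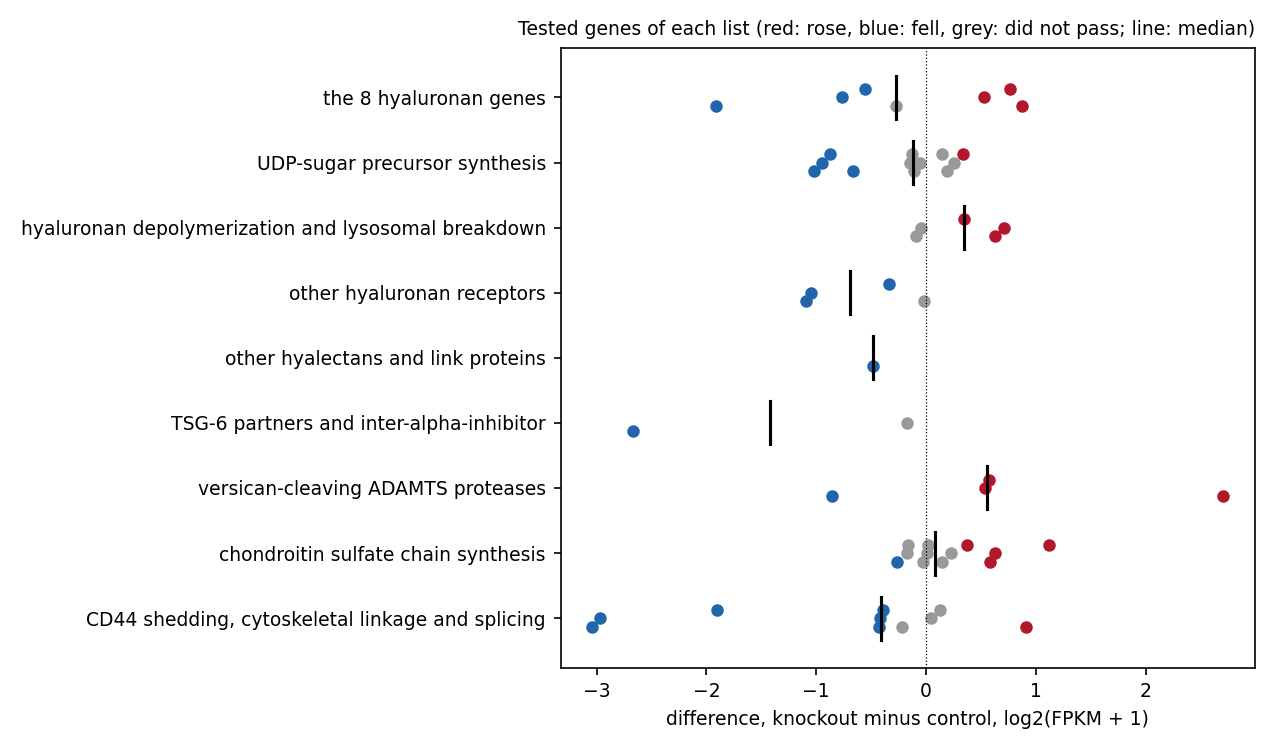
Difference, knockout minus control, on the log2(FPKM + 1) scale (horizontal axis) of each tested gene in 9 lists (rows), with red points for genes that rose, blue for genes that fell, grey for those that did not pass, and a black line at the list's median. The medians run from -1.42 for the TSG-6 partners (2 tested genes) to 0.55 for the versican-cleaving proteases, against -0.015 over all tested genes. Of the TSG-6 partners, Itih2 passed the filter on low values through its control libraries.

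The genes most like each changed member were taken as those with the smallest root mean square difference of log2(FPKM + 1), each gene centred on its mean over the 6 libraries. The members themselves and genes with predicted-gene symbols (Gm with a number, or Rik) were left out of the candidates. For Has2 they were Lhfpl2 (0.0264) and Pola1 (0.0417), and for Hyal1 they were Lipa (0.0308) and Rasl12 (0.0356). Pxdc1 (0.0340) and Rgs2 (0.0394) lay nearest to Hyal2. Cflar (0.0139) and Exoc5 (0.0241) lay nearest to Cd44, Slc38a4 (0.0493) and Suox (0.0656) to Vcan, and Ncapg (0.0315) and Nfatc2ip (0.0329) to Tnfaip6. The Cflar values show how close such a match was, at 12.79, 10.26 and 11.40 FPKM in knockout libraries and 7.44, 8.17 and 7.59 FPKM in control libraries, with knockout replicate 2 lowest and control replicate 2 highest in their groups, as for Cd44. Likeness over 6 libraries of 2 groups is a description of these values only.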

How the data were processed

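RNA-seq of 6 mouse libraries (3 S100a8 knockout, 3 vector control) was used. Total RNA was extracted with TRIZOL and sequenced on a DNBSEQ platform. HISAT2 2.0.4, Bowtie2 2.2.5 and mm10 are named in the processing notes of the submitters, and RSEM in the study's methods. The values deposited by the authors were FPKM per gene, given to 2 decimals. The authors discarded reads with adapter or poly-N sequence or many low-quality bases. The annotation, any filter on genes and the strand setting are not given in the sources used here. The authors' group averages were not used. FPKM holds no read counts, and the ratios of low values between libraries showed no step worth 1 read (7.72% to 12.59% of them in the fullest bin), so the depth is unknown and no counting interval is given.

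FPKM was converted to log2(FPKM + 1), which understates changes of low genes. Genes whose mean reached 1 FPKM (11112 of 18051) entered a fit in limma 3.58.1 under R 4.3.3 (empirical Bayes with a mean-variance trend, no covariate, two-sided) with Benjamini-Hochberg adjustment and a threshold of 0.05. The fit was tested on simulated data. Has3 was compared by an exact permutation test. Positions are from GENCODE M21 (GRCm38). The members and lists were chosen with earlier results of these data known. From each list, the text names at most 3 rises and 3 falls of largest size. Ugdh, Cemip2, Idua, Hmmr, Ptx3, Chpf2, Msn, Nf2, Ank3, Rdx, Adam10, Adam17 and the neighbours of Hyal1 were chosen after their values were seen. List genes with no values here (Hyal4, Spam1, Ambp and Esrp1) were not analysed, and some list genes are not reported here. Alternatives were pseudocounts of 0.1 and 0.5, no filter, a minimum mean of 5 FPKM, scaling to a common sum, median-of-ratios and quantile scaling, no mean-variance trend, centring by chromosome, the replicate number as a block, and each library left out.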

Additional observations from a re-analysis of the deposited data

How the results depend on the processing

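The calls of Has2, Hyal1, Hyal2, Cd44, Vcan and Tnfaip6 and their directions held in each alternative that tested them. The count of called members was 6 of 7 and stayed at 6 or 7 with each library left out. With a mean FPKM of at least 5 only Hyal2 and Cd44 were tested, and both passed (2 of 2). Over all genes 5580 passed, against 4283 to 7391 with each library left out, the most without knockout replicate 2. The replicate number as a block gave 5527 genes and 6 members; same-numbered libraries deviated with correlations of 0.33, 0.10 and -0.21, so the numbers were not taken as pairs. The named genes other than the cell markers, Idua and the genes found by likeness gave 805 values under the alternatives. Of these 781 kept direction and call, 7 lost the call, 8 gained it and 9 changed sign. The sign changes were those of Gnpnat1 (-0.0752), Cemip2 (0.1253), Adam10 (-0.0118) and Hmmr (7e-04) with centring by chromosome, of Hmmr with quantile normalization (0.0345), and of 4 genes with a library left out. There the difference lay between -0.1693 and 0.0394 for Cemip2, between -0.0574 and 0.0589 for Hmmr and between -0.025 and 0.1298 for Adam10, highest without knockout replicate 2. For Naa80 it lay between -0.1843 (without knockout replicate 2, where it passed) and 0.0168 (without knockout replicate 1). The gained calls were those of Has1, Ptx3, Naa80, Rdx, Adam10 and Adam17. The cause was not tested. Unknown depth, the low levels of Hyal1, Tnfaip6, Has1 and Has3 and the stated rounding to 2 decimals limit precision. No alternative shifted the median of all genes by more than 0.1.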
